A study of Mus musculus with 5 samples.

Results

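The limb identity transcription factors described here are genes of limb bud mesenchyme, and some of them set limb type, side or segment. The 10 genes are Tbx4, Pitx1, Tbx5, Tbx2, Tbx3, Tbx15, Tbx18, Hand2, Shox2 and Lmx1b. Their probe sets were taken by gene symbol from the main category of the annotated expression table, which gave 11 probe sets for 10 of 21630 measured genes. Log2 signals were compared between 3 arrays of mouse embryonic fibroblasts (MEFs) labelled Mdr2 knockout (MDR2-/-, replicates 1, 2 and 3) and 2 arrays labelled wild type (MDR2+/+, replicates 2 and 3). MEFs are mesenchymal cells grown out of dissociated embryos. Mdr2 is the older name of Abcb4, a phosphatidylcholine transporter gene. Both groups came from littermate embryos and were carried to passage 40 under a 3T3 schedule, a fixed routine of replating that immortalises fibroblasts. The sources used here do not name the strain, the knockout allele, the part of the embryo used or the number of embryos or independent lines behind each group, so the spread between arrays may be technical. The genes were chosen by their log2 signals in the knockout against wild-type contrast on these same arrays, and their values in it are therefore given as a description with no test.

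In the mouse, the homeodomain factor Pitx1 is made in hindlimb and not forelimb mesenchyme and acts upstream of the hindlimb T-box gene Tbx4. Tbx5 has the corresponding role in the forelimb bud and is also a heart gene. Connective tissue fibroblasts are known to keep such positional codes, with those of the Hox genes, long after the limb has formed and in culture.

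Before these genes, the labels were checked on the arrays. Abcb4 went against them: its log2 signal was 6.002, 4.63 and 5.74 on the arrays labelled knockout (always in the order of replicates 1, 2 and 3), against 4.05 and 3.95 in wild type (replicates 2 and 3). Of these 5 signals only that of knockout replicate 1 was above background, defined below from control probe sets. The sources used here do not say which part of the gene is deleted, and a probe set outside that part checks nothing. Xist, the RNA of the inactive X chromosome, was at 7.32 to 7.68 on the arrays labelled knockout and at 2.98 to 3.17 in wild type, while the Y-linked Ddx3y was at 2.26 to 2.61 on the arrays labelled knockout and at 6.65 to 6.96 in wild type. Genotype label and the sex of the cells, as read from these genes, therefore cannot be told apart. Nor can differences between the embryos behind each group. This holds for every difference between the groups given below, those of Tbx4 and Pitx1 included. Background was read from 45 antigenomic probe sets, designed to match nothing in the mouse genome. Their 95th percentile lay between 5.71 and 6.08 on the 5 arrays, and a probe set is called above background here where it exceeded that percentile on the same array. This is a strict line: the antigenomic median was 2.14, and the median over all genes, 4.27 to 4.33, was itself below background on every array. A signal below background is therefore common and need not mean that the transcript is absent.

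Fibroblast markers were bright in both groups. Of 12 fibroblast markers 11 were above background on all 3 arrays labelled knockout and 10 on both wild-type arrays, with vimentin (Vim) at 11.41 to 11.47 on the arrays labelled knockout and 11.48 to 11.72 in wild type. Of the 12, 7 had arrays labelled knockout that all lay below the wild-type arrays, as did 14.4% of all genes. For 2 (Thy1 and Lum) it was the reverse, as for 10.6% of all genes. None passed limma's adjusted p of 0.05, and the median difference was -0.23. An unadjusted limma p under 0.05 was found for 5, beside 2952 of all 21630 genes. All 7 heart muscle markers, all 6 skeletal muscle, all 7 endothelial, all 7 neural and glial, all 8 epithelial and all 7 chondrocyte markers stayed below background on every array, including the cardiac factors Nkx2-5 and Gata4. Of 7 immune markers only Cd68 was above it, on wild-type replicate 2. Of 6 mesothelial and epicardial markers only Msln, which encodes mesothelin, was above background, and this on the arrays labelled knockout alone.

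Tbx4, the T-box factor that drives hindlimb bud outgrowth, stood far apart between the groups. Its log2 signal was 8.16, 7.51 and 8.29 on the arrays labelled knockout, against 3.88 and 3.53 in wild type. All arrays labelled knockout were above background and both wild-type arrays were below it. Tbx4 averaged 7.99 ± 0.42 (SD, n = 3) on the arrays labelled knockout and 3.70 ± 0.25 (SD, n = 2) in wild type, a difference of 4.28 on the log2 scale. Since the wild-type signal was not above background, the ratio is a bound, at least 4.58-fold higher on the arrays labelled knockout when the wild-type arrays are set at the antigenomic percentile. The 32 probes of the set, 10379944, lie on the plus strand of chromosome 11 from 85703565 to 85728247 (NCBIM37). In bulk RNA, fewer cells that make a transcript and less transcript per cell cannot be told apart.

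The RefSeq promoter window of Tbx4, from 250 bases before to 50 bases after an annotated start site, is shown because this gene had the largest difference of the 10. It lies at chr11:85896515-85896814 on the plus strand (GRCm38.p6), and its start site is 10398 bases inside the annotated span of the gene. Capitals mark the only match to a GC box (GGGCGG, read here as its reverse complement CCGCCC), which begins at base 227 of the window, where the start site is base 251.
Tbx4: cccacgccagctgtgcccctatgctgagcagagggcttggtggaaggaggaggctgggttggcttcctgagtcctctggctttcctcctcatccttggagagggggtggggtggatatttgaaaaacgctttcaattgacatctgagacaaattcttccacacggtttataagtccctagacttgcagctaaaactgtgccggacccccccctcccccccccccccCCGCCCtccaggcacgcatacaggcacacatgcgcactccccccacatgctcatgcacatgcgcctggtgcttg
A GC box on either strand occurs in 35.7% of 32851 mouse promoter windows of the same length. Neither TAATCC, the bicoid-type motif that Pitx factors bind (7.06% of windows, both strands), nor the core T-box site GGTGTGA (3.98% of windows, both strands) has a match in the Tbx4 window. The motifs do not overlap one another here. The window has a GC content of 59.0% and 8 CpG dinucleotides, against medians of 52.67% and 7 over all windows. Windows were also at hand for Lmx1b, Shox2, Hand2 and Tbx18, with GC contents of 65.67%, 53.33%, 50.33% and 51.67% and with 24, 11, 17 and 15 CpG dinucleotides.

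Pitx1, the homeodomain factor that specifies hindlimb, was high on the same arrays. It read 7.56, 8.01 and 7.69 on the arrays labelled knockout, against 5.46 and 5.54 in wild type. Again all 3 arrays labelled knockout were above background and both wild-type arrays below it, with no overlap. Pitx1 averaged 7.75 ± 0.23 (SD, n = 3) on the arrays labelled knockout and 5.50 ± 0.06 (SD, n = 2) in wild type, a difference of 2.25, and the bound was at least 3.89-fold higher on the arrays labelled knockout. Its probe set, 10409551, has 26 probes on the minus strand of chromosome 13 from 55926415 to 55932786 (NCBIM37). Within the arrays labelled knockout the hindlimb genes did not keep the same order: replicate 2 had the lowest Tbx4 signal and the highest Pitx1 signal.

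Tbx5, the forelimb and heart T-box factor, lay far below background throughout. It read 2.58, 2.49 and 2.22 on the arrays labelled knockout and 2.49 on both wild-type arrays. The groups overlapped, with means of 2.43 ± 0.19 (SD, n = 3) on the arrays labelled knockout and 2.49 ± 0.00 (SD, n = 2) in wild type. Both wild-type arrays and knockout replicate 2 held the identical value 2.4867, so the SD of 0.00 is not read as precision. No fold is given between signals that are both below background. The set of 30 probes, 10525030, is on the plus strand of chromosome 5 from 120284672 to 120334494 (NCBIM37).

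**Figure D1:**
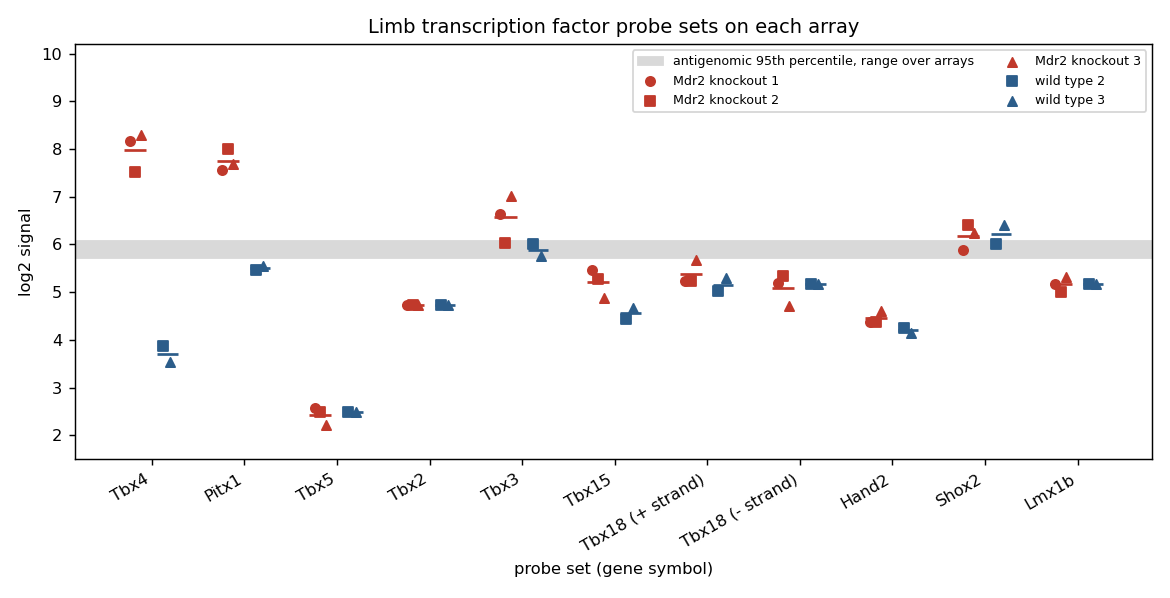
Log2 signal of the 11 probe sets of the 10 limb transcription factors on each of 5 arrays, with short lines for group means and a grey band for the 95th percentile of the antigenomic probe sets (5.71 to 6.08). Tbx4 and Pitx1 lie above the band on all 3 arrays labelled knockout and below it on both wild-type arrays, while Tbx5 lies near 2.5 on all 5.

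Tbx2 and Tbx3, sister T-box repressors that act in the limb margins and can hold back the p19ARF gene, differed in what could be read. Tbx3 read 6.64, 6.03 and 7.02 on the arrays labelled knockout, against 6.01 and 5.75 in wild type. The groups did not overlap, but knockout replicate 2 lay next to wild-type replicate 2. Tbx3 averaged 6.57 ± 0.50 (SD, n = 3) on the arrays labelled knockout and 5.88 ± 0.18 (SD, n = 2) in wild type, a difference of 0.68. Tbx3 was above background on all 3 arrays labelled knockout and on 1 of 2 wild-type arrays. Tbx2 had the same value, 4.73, on all 5 arrays, below background. Such equal values occurred for 1589 of the 21630 genes and leave no difference to read.

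Tbx15 and Tbx18, related T-box genes of limb, trunk and skin mesenchyme, were below background on every array. Tbx15 read 5.47, 5.27 and 4.87 on the arrays labelled knockout, against 4.44 and 4.67 in wild type, a difference of 0.65 with no overlap. Tbx18 is represented by a pair of probe sets that are annotated to opposite strands of chromosome 9. The set on the strand of the gene (10595560, minus strand) read 5.19, 5.33 and 4.71 on the arrays labelled knockout and 5.18 on both wild-type arrays. The slightly brighter set on the other strand (10587637) read 5.22, 5.22 and 5.68 on the arrays labelled knockout, against 5.02 and 5.29 in wild type. The groups overlapped for both sets, and their differences had opposite signs (-0.10 and 0.22).

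The remaining genes assign positions within a limb bud. Shox2, a homeobox gene of the proximal segment, read 5.89, 6.40 and 6.25 on the arrays labelled knockout, against 6.01 and 6.41 in wild type. The groups overlapped, the difference was -0.03, and the signal was above background on 2 of 3 arrays labelled knockout and on both wild-type arrays. Shox2 was thus the only one of the 10 above background on both wild-type arrays. Hand2, a basic helix-loop-helix factor that acts upstream of Shh at the posterior margin, read 4.38, 4.38 and 4.61 on the arrays labelled knockout, against 4.25 and 4.15 in wild type. Its groups did not overlap, but all 5 values were below background. Lmx1b, the LIM homeodomain factor of dorsal limb identity, read 5.18, 5.001 and 5.31 on the arrays labelled knockout and 5.18 on both wild-type arrays, also below background.

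Counted over the 10 genes with the brightest probe set of each, 5 had arrays labelled knockout that all exceeded the wild-type arrays (Tbx4, Pitx1, Tbx3, Tbx15 and Hand2), 0 the reverse, and 5 overlapped. The same separation upward was found for 10.6% of all genes and downward for 14.4%. The contrast chose the 10 genes, and nothing is read from their count. Their median difference was 0.24, or 0.13 with the Tbx18 set on the strand of the gene, beside 0.00 over all genes, and 2 of the 10 differed by more than 1, beside 4.09% of all genes. Of the 10, 6 were below background on all 5 arrays, as was the median over all genes, and 0 were above it on all 5.

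Tbx2 and Tbx4 are neighbours, as are Tbx3 and Tbx5. No neighbour of Tbx4 or Pitx1 that was above background on any array had a difference as large as theirs. The centres of the Tbx2 and Tbx4 probe sets lie 65.3 kb apart. Tbx2, equal on all arrays and below background, leaves no difference to read beside the 4.28 for Tbx4. The other 7 probe sets within 500 kb of Tbx4 had differences between -0.49 (Bcas3) and 0.13 (Brip1, a DNA helicase gene). Bcas3 was above background on wild-type replicate 3 alone and Brip1 on no array. Around Pitx1, 25 probe sets ranged from -0.60 (Dbn1, the actin-binding protein drebrin) to 0.59 (Cxcl14, a chemokine gene). Dbn1 was above background on all arrays, while Cxcl14 and the nearest, Catsper3 (0.12), were below it on every array. Tbx3 lies 181.9 kb from Tbx5. Both Rbm19 probe sets beyond Tbx5 were below background, with differences of -0.12 and -0.02. The median differences over chromosomes 11, 13 and 5 were -0.03, -0.0045 and 0.02, for 1629, 828 and 1237 genes.

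**Figure D2:**
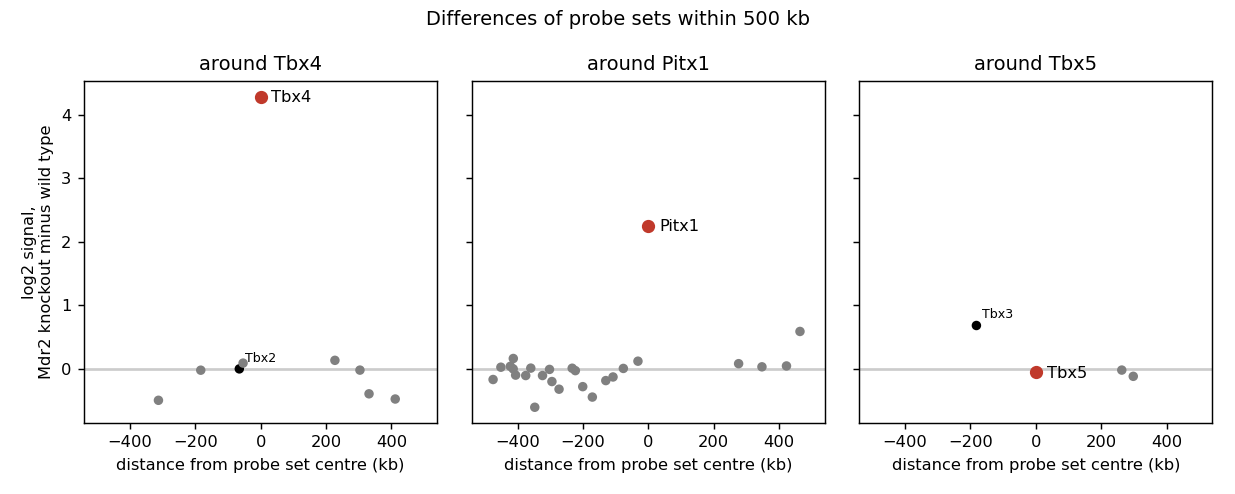
Difference in log2 signal, Mdr2 knockout minus wild type, for probe sets within 500 kb of Tbx4, Pitx1 and Tbx5, against the distance between probe set centres in kb. Red points are the named genes, black points other limb transcription factors and grey points the remaining neighbours, which lie between -0.60 and 0.59. Tbx2 and some of the grey points were below background on every array.

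Genes with the most similar course over the 5 arrays were found by the root mean square distance between log2 values centred on each gene's mean, among 17945 genes. For Tbx4 they were Thy1, a surface glycoprotein used as a fibroblast marker (distance 0.27), Msln, which encodes mesothelin (0.30), and the metallothionein gene Mt2 (0.31). Thy1 read 10.55, 9.70 and 10.16 on the arrays labelled knockout, against 5.60 and 5.22 in wild type. Of the other fibroblast markers 7 were lower on all arrays labelled knockout, a separation found for 14.4% of all genes. Msln read 9.45, 7.99 and 9.38 on the arrays labelled knockout, against 4.53 and 4.23 in wild type. Both share with Tbx4 a lower value on knockout replicate 2 than on the other arrays labelled knockout. That likeness follows largely from picking them by their course over these same arrays. The part of mesothelial cells in the Tbx4 difference was not tested. The mean log2 signal of the 6 mesothelial and epicardial markers was 4.04 to 4.35 on the arrays labelled knockout and 3.43 to 3.47 in wild type, but their median difference was 0.02. Msln accounts for the shift in the mean: the other 5 were below background on every array and differed by 0.00 to 0.05. One of those is Upk3b, at 3.81 to 3.93 on the arrays labelled knockout and at 3.81 on both wild-type arrays.

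For Pitx1 the nearest genes were the netrin receptor gene Unc5c (distance 0.08), the small heat shock protein gene Hspb2 (0.14) and the peroxidase gene Gpx7 (0.16). Unc5c read 7.17, 7.59 and 7.32 on the arrays labelled knockout, against 4.87 and 5.11 in wild type, and like Pitx1 it was highest on knockout replicate 2. For Tbx5 they were Tle2, Bet1 and Ifnab (0.02 each), genes that hardly moved over the 5 arrays. These genes were picked for their likeness in this contrast and carry no test.

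**Figure D3:**
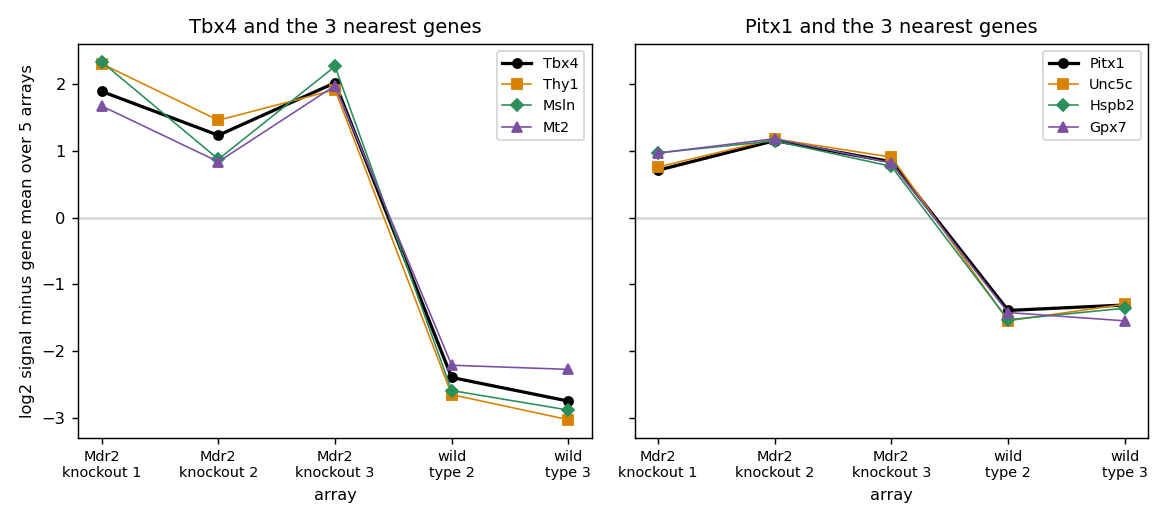
Log2 signal minus the gene's mean over 5 arrays, for Tbx4 (left) and Pitx1 (right) with the 3 genes of most similar course. Tbx4, Thy1, Msln and Mt2 dip on knockout replicate 2, whereas Pitx1, Unc5c, Hspb2 and Gpx7 peak there.

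Close relatives of these genes were tested with limma across all 21630 genes, of which 0.301% passed at 0.05 after Benjamini-Hochberg adjustment (0.153% upward and 0.148% downward relative to wild type). Of 17 measured T-box and homeobox paralogues 0 rose, 1 fell and 16 did not pass. The list's median difference was 0.02, beside 0.00 over all genes. Of the 17, 16 were below background on every array, as was the median signal over all genes. The gene that fell was Tbx20, a T-box gene of the heart, at 2.61, 2.46 and 2.59 on the arrays labelled knockout against 4.67 and 4.71 in wild type (log2 difference -2.14 ± 0.06, SE; limma adjusted p = 0.0240), though both groups were below background. The call on Tbx20 ended without any one of the arrays labelled knockout (limma adjusted p between 0.0524 and 0.163), where 0 to 2 of all 21630 genes passed. Tbx20 also lost the call without wild-type replicate 2, but not without wild-type replicate 3. Isl1, which acts upstream of hindlimb outgrowth in the mouse and was singled out after its values were seen, read 3.13, 3.13 and 3.18 on the arrays labelled knockout against 2.99 and 3.13 in wild type, all below background.

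Signals of limb outgrowth did not pass with limma. Of 37 measured genes 0 rose and 0 fell at the adjusted p of 0.05, beside 0.153% and 0.148% of all genes. An unadjusted limma p under 0.05 was found for 4 of the 37, beside 2952 of all 21630 genes. The median difference was 0.03. The largest differences were those of Cyp26b1, an enzyme that clears retinoic acid from the distal limb, at 4.66, 4.55 and 4.92 on the arrays labelled knockout against 7.17 and 6.61 in wild type (-2.18 ± 0.23, SE; limma adjusted p = 0.0952; below background on all 3 arrays labelled knockout, so at least 1.89-fold lower there), and of Dusp6, a feedback phosphatase of FGF signalling (1.08 ± 0.33, SE; adjusted p = 0.313). Cyp26b1 passed once the dimmest 40% of genes or the genes of equal values were left out and on rescaling by quantiles or medians (limma adjusted p between 0.0318 and 0.0416, and up to 0.463 over the other alternatives). Fgfr2, a receptor of limb FGFs, had a difference of -0.73, and Bmp4 one of 0.66. Fgf10, the mesenchymal growth factor that Tbx4 and Tbx5 switch on in limb buds, was also singled out after its values were seen. It read 5.76, 5.07 and 4.73 on the arrays labelled knockout, against 6.06 and 6.01 in wild type (limma adjusted p = 0.471). The groups did not overlap, a downward separation found for 14.4% of all genes. Fgf10 was below background on all 3 arrays labelled knockout, so its bound was at least 1.04-fold lower there. A relation to Tbx4 was not tested. Shh, Fgf8 and Wnt7a, signals of the limb bud's organising centres, were below background on all 5 arrays.

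Among 49 other transcription factors of limb patterning 1 rose, 0 fell and 48 did not pass, beside 0.153% of all genes rising and 0.148% falling. Their median difference was 0.01. Foxc1, a forkhead factor of mesenchyme and somites, rose to 7.40, 7.42 and 7.27 on the arrays labelled knockout, against 5.33 and 5.28 in wild type (2.06 ± 0.06, SE; limma adjusted p = 0.0240). Both wild-type arrays were below background, and the bound was at least 2.98-fold higher on the arrays labelled knockout. The call ended without any one of the arrays labelled knockout (limma adjusted p between 0.0609 and 0.134), where 0 to 2 of all 21630 genes passed. Foxc1 also lost the call without wild-type replicate 2, but not without wild-type replicate 3. Its relative Foxc2 lay on the other side, at 6.01, 5.76 and 6.37 on the arrays labelled knockout against 7.36 and 7.21 in wild type (adjusted p = 0.165). Msx1, a homeobox gene of undifferentiated mesenchyme, had a difference of -1.64 and Osr1, a zinc finger gene of connective tissue, one of 0.99 (limma adjusted p = 0.146 and 0.275). Msx1 was below background on all 3 arrays labelled knockout, so that its bound was at least 1.36-fold lower there. Prrx1, a homeobox gene common to all limb mesenchyme, was bright in both groups, at 9.99 to 10.19 on the arrays labelled knockout and at 10.55 to 10.78 in wild type (adjusted p = 0.169).

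Hox genes hold the other part of the limb code. Of 24 that act in limbs 3 rose, 0 fell and 21 did not pass, beside 0.153% of all genes rising and 0.148% falling. The median difference was 0.62, beside 0.00 over all genes. The 14 whose groups did not overlap were all higher on the arrays labelled knockout, a separation found for 10.6% of all genes. Of the 24, however, 21 were below background on every array, as was the median signal over all genes. Among these 21 was Hoxd10, which passed. The others, Hoxa10, Hoxa11 and Hoxc10, were above it on all 3 arrays labelled knockout and on neither wild-type array. Hoxc10, which in the mouse is used in hindlimb and not forelimb, read 7.21, 7.45 and 7.20 on the arrays labelled knockout, against 3.33 and 3.24 in wild type (limma adjusted p = 0.0240), a bound of at least 2.82-fold higher on the arrays labelled knockout. Hoxa11, a gene of the middle limb segment, read 6.76, 6.61 and 7.05 on the arrays labelled knockout, against 4.23 and 4.74 in wild type (limma adjusted p = 0.0822), a bound of at least 2.02-fold higher. Without any one of the arrays labelled knockout 0 of the 24 passed, beside 0 to 2 of all 21630 genes, with limma adjusted p between 0.0524 and 0.151 for Hoxc10. The direction of this list had been seen in these arrays before, and it is no independent evidence for the Tbx4 and Pitx1 values.

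**Figure D4:**
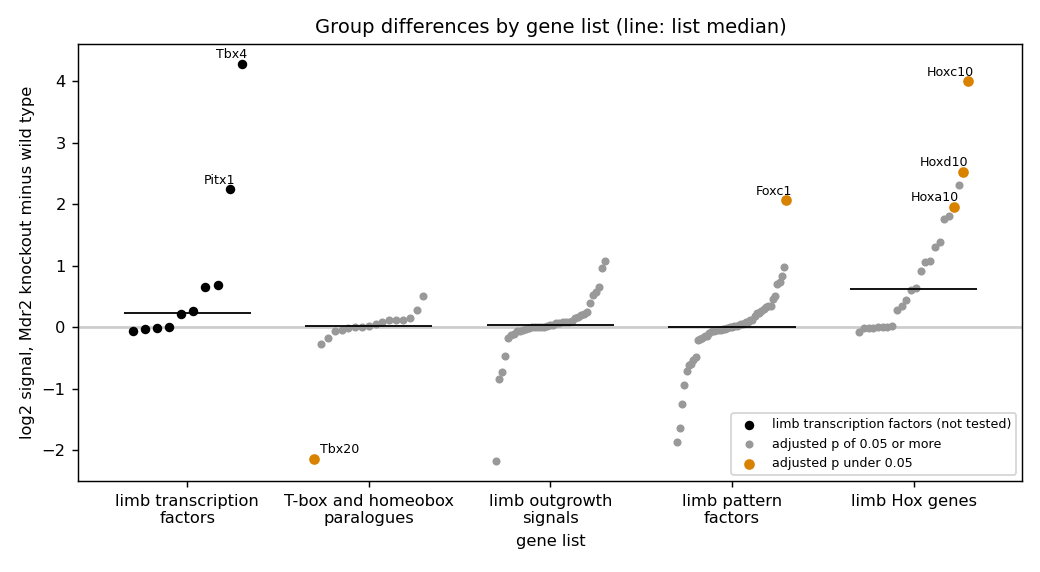
Difference in log2 signal, Mdr2 knockout minus wild type, for the 10 limb transcription factors and for 4 lists of related genes, sorted within each list, with a line at the list median. Orange points passed limma's adjusted p of 0.05: Tbx20 on the lower side, Foxc1, Hoxc10, Hoxd10 and Hoxa10 on the higher side.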

How the data were processed

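Per the labels' protocols, column-purified total RNA was amplified, converted to biotinylated cDNA and hybridised to Affymetrix arrays. The authors deposited log2 signals per probe set, made with Affymetrix Expression Console per the submitters' processing notes. For its version, summary method and normalization the sources used here name nothing. Values were used as deposited, and both deposited tables held equal values for all 35556 probe sets. Of 28350 main probe sets, 25004 had 1 symbol, 2 several and 3344 none. Symbols were updated through RefSeq (GRCm38.p6): 22271 by accession, 1969 by symbol or synonym, 764 not. Coordinates are the annotation's and were taken as NCBIM37.

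The brightest probe set stood for each gene. Groups were compared with limma 3.58.1 (R 4.3.3, lmFit and eBayes, no block), Benjamini-Hochberg adjusted, after a test on simulated data. The number of arrays limits precision. The 10 genes, the 4 related lists and the marker lists were chosen with earlier results of these data known. Named are all 10 genes, list genes that passed, up to 4 per list above background with the largest differences and no overlap, the 3 nearest courses, neighbours within 500 kb, label checks and the brightest markers. Other names were chosen after their values were seen. Of the listed paralogues Shox had no probe set. One further related gene is not reported here. Motifs were searched on both strands of RefSeq promoter windows.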

Additional observations from a re-analysis of the deposited data

How the results depend on the processing

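The differences of Tbx4, Pitx1 and Tbx5 ran from 4.11 to 4.52, 2.12 to 2.34 and -0.13 to 0.05 over the alternatives, within the spread between arrays. For these genes only the quantile and median rescalings could have gone past that spread. Leaving out 1 array cannot shift a mean that far here, and the replicate block repeated the values without knockout replicate 1. Averaging probe sets and reading the other deposited table return the main value for genes with 1 probe set. Of 100 alternative values over the 10 genes 2 moved by more than the spread, both of Tbx2, whose spread is 0. Taking Tbx18 by the probe set on its own strand, chosen after seeing the data, gave the 10 a median difference of 0.13, against 0.24. The limma calls moved far more. Over all genes 65 passed, against 363 on quantile normalization, 250 on median subtraction, 270 without the dimmest 40%, 359 without genes of equal values (1589 fewer genes tested), 107 with array weights and 0 at an adjusted p under 0.01 (2952 at an unadjusted p under 0.05). Leaving out 1 array gave 0 to 335, the 0 without knockout replicate 1 or 3 (2297 and 2196 at an unadjusted p under 0.05) and 2 without knockout replicate 2. A lone wild-type array is assumed to vary like the others. Among the T-box and homeobox paralogues 1 passed, against 0 without the dimmest 40% (Tbx20 is removed), 0 at 0.01 and 0 to 1 with 1 array left out. Among the limb outgrowth signals 0 passed, against 1 (Cyp26b1) on quantile normalization, on median subtraction, without the dimmest 40% and without genes of equal values. Among the limb pattern factors 1 passed, against 2 on quantile normalization, on median subtraction and without the dimmest 40%, 3 without genes of equal values, 0 at 0.01 and 0 to 3 with 1 array left out. There Sall1 passed in opposite directions, lower without wild-type replicate 2 and higher without wild-type replicate 3, with its single remaining wild-type value deciding the sign. Among the Hox genes 3 passed, against 7 on quantile normalization and without genes of equal values, 5 on median subtraction, 6 without the dimmest 40%, 0 at 0.01 and 0 to 3 with 1 array left out. With the replicate block, which leaves 1 residual degree of freedom, 0 genes passed over all genes (2319 at an unadjusted p under 0.05) and in each of these lists. The arrays share only a number. Deviations of same-numbered arrays from their group means had r = -0.17 for number 2 and -0.14 for number 3, across genes. With 2 wild-type arrays these deviations mirror each other, so the signs cannot tell whether the numbers mark pairs. Crossing the numbers, chosen after seeing the data, also gave 0 in all (2755 at an unadjusted p under 0.05). Apart from the counts, the cause of these moves was not tested. No list gene named by rule turned (0 of 207 signs). None had group overlap, so few could.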
